A study of Mus musculus with 6 samples.

Results

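Aminoacyl-tRNA synthetases are the enzymes that load each amino acid onto its transfer RNA. The 36 genes described here are nuclear genes, 20 for cytosolic and 16 for mitochondrial enzymes. Farsa and Farsb are counted separately, though they encode subunits of 1 enzyme. The 36 were chosen by gene symbol out of 26214 genes listed in the counts, and all 36 were found. RNA was sequenced from immortalized mouse brown preadipocytes that had been differentiated in culture into brown adipocytes, the heat-producing kind of fat cell. On day 7 the cells received for 16 h either 100 nM rotenone, which blocks complex I of mitochondrial respiration, or DMSO alone. Both groups had the same differentiation mix of insulin, triiodothyronine, IBMX, dexamethasone and indomethacin beforehand, and no genetic change other than the immortalization is named for either. The labels do not say whether the cells are 1 clone or came from 1 animal.

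Each group has 3 deposited libraries, which the series text calls independent replicates. The 3 rotenone files held the same count for every gene (0 genes differed), a difference smaller than sampling noise, and were counted as 1 sample. Every DMSO pair differed, so the comparison is of 3 DMSO libraries with 1 rotenone library, and all spread comes from DMSO. Total counts were 26085061 to 29194179 in DMSO and 21611589 with rotenone, and the lowest count of any synthetase in any library was 140. Adipocyte markers were present in every library. The summed level of 6 markers, Adipoq and Fabp4 among them, was 9231 ± 550 CPM (SD, n = 3) in DMSO and 8066 CPM with rotenone. CPM is a gene's counts relative to its library's total, the total scaled by TMM. Of the 6 markers 4 fell, as 28.5% of all genes tested did, Lipe most, by 1.88 on the log2 scale. Fabp4 alone held 4857 to 5583 CPM of the sum in DMSO and 5306 CPM with rotenone. Of 5 brown fat markers, Dio2 was at 0 to 0.236 CPM, and 2 of the other 4, Ucp1 and Prdm16, fell by 1.86 and 2.13 on the log2 scale. The sum of the 5 was 793.8 to 937.5 CPM in DMSO and 747.3 CPM with rotenone. Cidea, also among the 6 adipocyte markers, held most of that sum, at 652.6 to 774.9 CPM in DMSO and 673.1 CPM with rotenone. Of 5 macrophage markers, the defining genes Ptprc and Adgre1 had 0 counts in every library, and Csf1r and Itgam had at most 4 counts in DMSO and 0 with rotenone. Cd68, a lysosomal protein gene, carried the summed level alone with rotenone, at 15.5 CPM against a sum of 2.36 to 3.57 CPM in DMSO. The 4 endothelial markers summed to 0.187 to 0.623 CPM in DMSO and 1.03 CPM with rotenone. Of 5 skeletal muscle markers, Myod1 had 0 counts in every library, and Myog and Ckm had at most 2. Des held most of their sum, at 49.7 to 52.0 CPM in DMSO and 41.7 CPM with rotenone, and fell by 0.287 on the log2 scale. Acta1 rose by 4.87, from 0.138 to 0.304 CPM in DMSO to 6.65 CPM with rotenone.

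A cell needs a separate set of charged transfer RNAs in the cytosol and inside mitochondria, where the few proteins encoded by mitochondrial DNA are made. Most amino acids therefore have a cytosolic synthetase and a mitochondrial one from different genes, the latter usually marked by the suffix 2. Gars and Kars each supply both compartments, and Eprs is a fusion of the glutamate and proline enzymes. Many cytosolic synthetase genes are known targets of ATF4, the transcription factor of the integrated stress response and of the response to amino acid shortage.

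Cytosolic synthetase transcripts were higher with rotenone as a group, and mitochondrial ones went both ways. Of the 20 cytosolic genes, 19 rose and 1, Dars, fell by edgeR's quasi-likelihood test at a Benjamini-Hochberg adjusted p under 0.05. The median log2 fold change was 0.74 (1.67-fold), against -0.04 over all 14709 genes tested. Of the 16 mitochondrial genes, 7 rose, 3 fell and 6 did not pass, with a median of -0.01. Among all genes tested, 27.6% were called higher and 28.5% lower, so the mitochondrial count of 7 higher stands nearer to that background than the cytosolic count of 19. By range alone, the rotenone value lay above all 3 DMSO libraries for 19 cytosolic genes and below them for 1, while 41.5% of all genes tested were above and 44.7% below. For the mitochondrial genes it lay above for 7, below for 8 and within the DMSO range for 1. These are bulk samples, in which fewer cells of a type and less RNA per cell cannot be told apart. Of the 7 preadipocyte and fibroblast markers, 5 rose, Ly6a did not pass, and Pdgfra, a progenitor marker, fell by 1.11 on the log2 scale. Their summed level went from 1289 to 1444 CPM over the DMSO libraries to 3644 CPM. Most of the rotenone sum was Col1a1, a collagen gene (826.6 to 958.9 CPM in DMSO, 2121 CPM with rotenone), and Acta2, a contractile gene (145.3 to 163.2 and 852.1 CPM). The part of these 7 markers, of Cd68 and of the fat cell markers in the synthetase result was not tested.

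**Figure D1:**
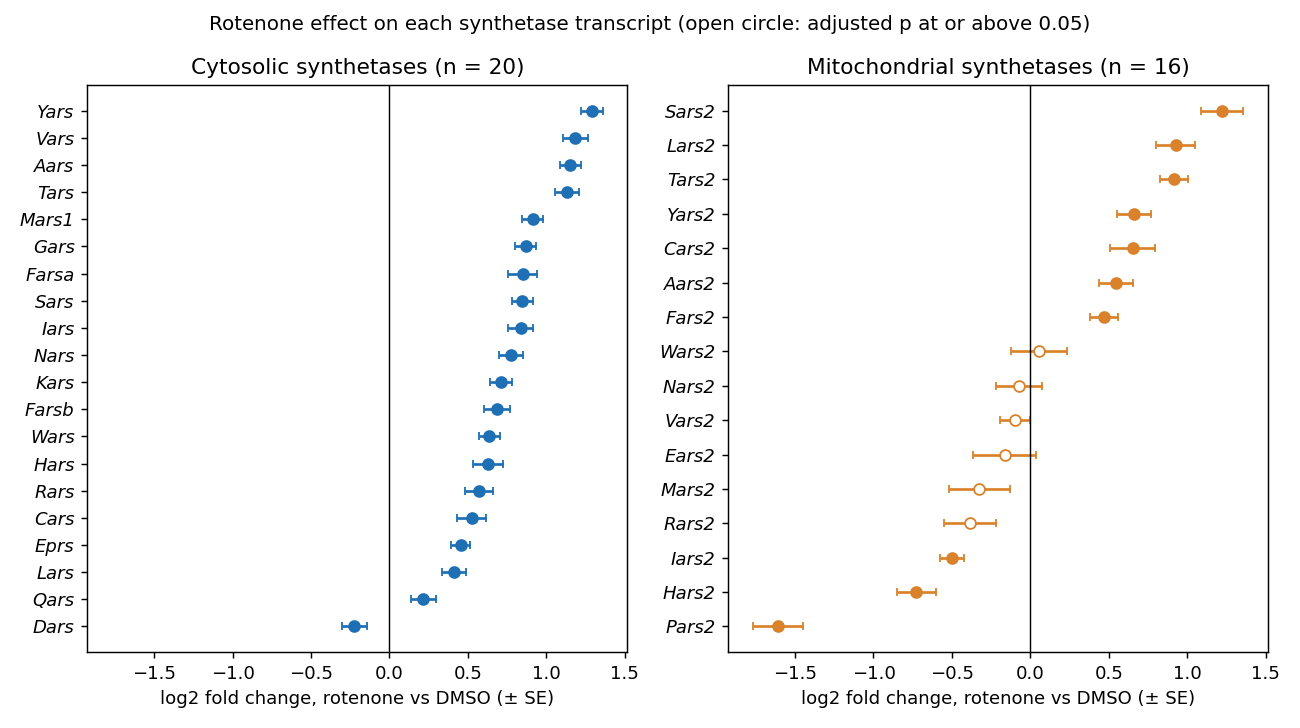
Log2 fold change (rotenone against DMSO, horizontal axis, ± SE) of each of the 20 cytosolic and 16 mitochondrial synthetase genes, ordered by size; filled circles passed an adjusted p under 0.05 in edgeR and open circles did not. Dars is the only cytosolic gene left of 0, while the mitochondrial genes run from Pars2 at -1.61 to Sars2 at 1.22.

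With a single rotenone library, its spread was taken to equal that of DMSO, where the biological coefficient of variation was 6.9%. With 20% assumed for every gene, 9 cytosolic genes rose and 0 fell (0 also at an unadjusted p under 0.05), and 3 mitochondrial genes rose and 1 fell, against 9.57% and 14% of all genes. In a test against a change of 1.5-fold, 10 cytosolic genes rose and 0 fell (0 also unadjusted), and 3 mitochondrial genes rose and 1 fell, against 8.18% and 11.8% of all genes.

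Yars, which charges tyrosine, had the largest rise of the 36. Its levels were 88.5, 95.9 and 97.2 CPM in the DMSO libraries and 229.3 CPM with rotenone, so the groups did not overlap. The log2 fold change was 1.29 ± 0.07 (SE; edgeR quasi-likelihood, Benjamini-Hochberg adjusted p = 2.12e-11). The gene lies on the forward strand of chromosome 4, from 129189760 to 129219607 (GRCm38).

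Vars, the valine enzyme, stood at 87.5, 101 and 104 CPM in DMSO and 221.7 CPM with rotenone, a log2 fold change of 1.18 ± 0.08. For Aars, which charges alanine and proofreads against serine and glycine, the DMSO libraries held 260.3, 293.7 and 282.8 CPM and the rotenone library 620.4 CPM (1.15 ± 0.07). The threonine enzyme Tars went from 69.5, 77.4 and 72.9 CPM to 160.6 CPM (1.13 ± 0.07). In all 3 the rotenone library held more than double the level of each DMSO library. These and Yars were the 4 cytosolic genes that rose at least 2-fold, which 5.53% of all genes tested did.

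A middle group rose by between 1.61-fold and 1.88-fold. Mars1, which charges methionine for both initiation and elongation, had 97.5, 101.1 and 103 CPM in DMSO and 189 CPM with rotenone (log2 fold change 0.91 ± 0.07). Gars, the glycine enzyme of both compartments, had 183.6, 188.3 and 178.1 CPM and then 334 CPM (0.87 ± 0.06). The serine enzyme Sars, whose product is also the start of selenocysteine synthesis, had 215.1, 236.5 and 225.3 CPM and then 405.9 CPM (0.85 ± 0.07). Every rotenone value here was above the whole DMSO range. Farsa and Farsb, which encode the 2 subunits of the same phenylalanine enzyme, rose by 0.85 ± 0.09 and 0.69 ± 0.08 on the log2 scale. Iars (isoleucine), Nars (asparagine) and Kars (lysine, both compartments) rose by 0.84 ± 0.08, 0.77 ± 0.08 and 0.71 ± 0.07. Iars shares 1656 bases at 96.0% identity with the pseudogene Gm4849, so its counts are less certain.

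Smaller rises were those of Wars (tryptophan, 0.64 ± 0.07 on the log2 scale), Hars (histidine, 0.63 ± 0.10), Rars (arginine, 0.57 ± 0.09), Cars (cysteine, 0.53 ± 0.09), Eprs (0.45 ± 0.06) and Lars (leucine, 0.41 ± 0.08). Eprs was the cytosolic gene with the tightest DMSO levels, at 307.9, 305.2 and 306.9 CPM, against 420.0 CPM with rotenone. LARS is also known as a leucine sensor upstream of mTORC1. These 6, together with Kars, Nars, Farsb and Qars, no longer passed when a coefficient of variation of 20% was assumed.

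Qars and Dars stood apart from the other cytosolic genes. Qars, the glutamine enzyme, had 69.0, 69.2 and 64.7 CPM in DMSO and 78.5 CPM with rotenone, a log2 fold change of 0.21 ± 0.08 (edgeR adjusted p = 0.0287). That call was lost with upper quartile scaling (adjusted p = 0.0769), with library size scaling (adjusted p = 0.326), without DMSO replicate 3 (adjusted p = 0.0739) and with DESeq2 (adjusted p = 0.0559). Dars, the aspartate enzyme, had 83.2, 79.2 and 79.7 CPM in DMSO and 69.0 CPM with rotenone, and fell by 0.23 ± 0.08 on the log2 scale (edgeR adjusted p = 0.0205). Its call was lost with DESeq2 (adjusted p = 0.0877) and after correction for transcript length and GC content (edgeR adjusted p = 0.19).

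Both Qars and Dars belong to the multisynthetase complex, a cytosolic assembly of 8 synthetases with the scaffold proteins encoded by Aimp1, Aimp2 and Eef1e1. The 8 complex members are Dars, Eprs, Iars, Kars, Lars, Mars1, Qars and Rars. Of these, 7 rose and 1 fell, against 27.6% and 28.5% of all genes tested. The median log2 fold change of the 8 was 0.51, with a range of -0.23 to 0.91. Of the 12 genes of enzymes outside it, all 12 rose, with a median of 0.85 and a range of 0.53 to 1.29. The difference between these sets was not tested, since genes are not replicates. Of the scaffold genes, Eef1e1 (15.1 to 17.0 CPM in DMSO) rose 2.21-fold, or by 1.15 ± 0.12 on the log2 scale, and Aimp1 by 0.44 ± 0.11, while Aimp2 gave 0.16 ± 0.12 and did not pass.

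Synthetases fall into a pair of structural classes with unrelated catalytic folds. By class, the 9 cytosolic class I genes all rose, with a median log2 fold change of 0.64. Of the 10 class II genes 9 rose, with a median of 0.81, while 27.6% of all genes tested were called higher. The difference between the classes was not tested. Eprs holds a domain of each class.

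**Figure D2:**
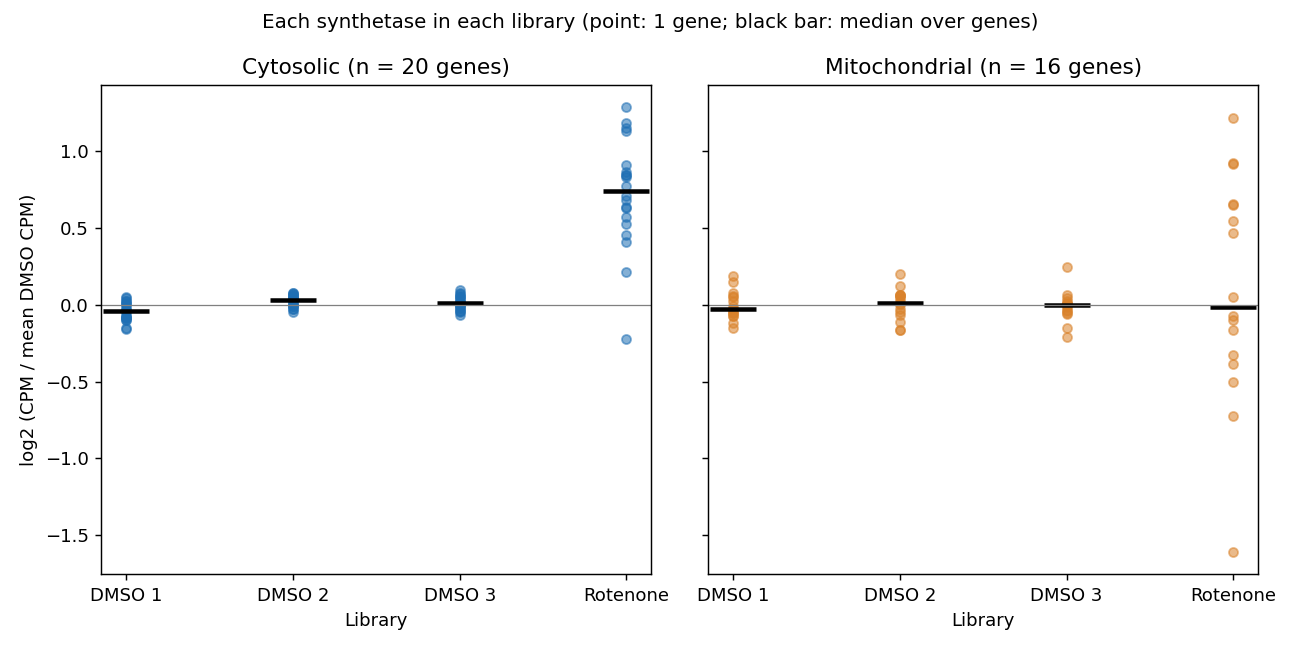
Level of each synthetase in each library, as log2 of CPM over the gene's mean DMSO CPM (vertical axis); each point is 1 gene and each black bar the median over genes. The 3 DMSO libraries lie close to 0 for both sets, whereas with rotenone the cytosolic points lie above 0 except Dars and the mitochondrial points spread to both sides.

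Promoter sequence was available for 27 of the 36 genes, as RefSeq windows on GRCm38.p6 of 250 bases before and 50 after the annotated start. The absent ones were Cars, Hars, Lars, Nars, Rars, Vars, Wars, Hars2 and Pars2. The C/EBP-ATF response element, the composite site that ATF4 is known to bind, was searched as TGATGNAA on both strands. It was present in 5 of the 13 cytosolic windows (38.5%) and in 0 of the 14 mitochondrial genes with a window. Of all protein-coding genes of the counts with such a window, 4.13% held it. For each of the 5 genes 1 match is shown, because these genes, Aars, Gars, Iars, Tars and Yars, are among the cytosolic genes that rose. Each line gives 30 bases on the gene's own strand, 5′ to 3′, with the match in capitals; TTGCATCA and TTTCATCA are the element read from the opposite strand.
Aars: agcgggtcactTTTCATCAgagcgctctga
Gars: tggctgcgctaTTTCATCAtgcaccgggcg
Iars: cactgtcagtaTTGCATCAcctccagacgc
Tars: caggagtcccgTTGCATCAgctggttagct
Yars: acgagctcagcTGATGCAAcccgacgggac
The match shown for Aars, in chr8:111033840-111033869 (forward strand), starts 10 bases after the RefSeq start. In GENCODE M21 it falls in an untranslated first part of some Aars transcripts. The Gars match, in chr6:55037960-55037989 (forward strand), starts 30 bases before the RefSeq start and lies outside the GENCODE gene. The Tars match, in chr15:11399655-11399684 (reverse strand), starts 15 bases before it and also lies outside. The Iars match, in chr13:49682126-49682155 (forward strand), starts 8 bases after it, in an untranslated exon. The Yars match, in chr4:129189895-129189924 (forward strand), starts 4 bases after it and lies in an exon that some GENCODE transcripts read as coding.

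The 5 cytosolic genes with the element had log2 fold changes of 0.84 to 1.29, with a median of 1.13. The 8 cytosolic genes with a window and no match ranged from -0.23 to 0.91, with a median of 0.70, and the 7 without a window had a median of 0.63. Vars, without a window, at 1.18, lay inside the range of the genes with a match. Over all genes tested that had a window, 32.3% of the 313 with a match were called higher and 22.4% lower, against 27.8% and 29.2% of the 11105 without. A match is a description of these letters, and no match says only that they are not in this window.

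Among mitochondrial enzymes, Sars2, which charges serine, rose most. Its levels were 12.6, 13.5 and 12.5 CPM in DMSO and 30.1 CPM with rotenone, with no overlap (log2 fold change 1.22 ± 0.13, edgeR adjusted p = 2.16e-07). Tars2, for threonine, had 37.0, 38.7 and 35.7 CPM and then 70.1 CPM (0.92 ± 0.09). Both passed with a coefficient of variation of 20%. Yars2 rose by 0.66 ± 0.11, Cars2 by 0.65 ± 0.14, Aars2 by 0.55 ± 0.11 and Fars2 by 0.47 ± 0.09, calls that were lost with 20% assumed. Cars2 has 217 bases in common with Naxd on opposite strands, and Fars2 has 115 with Lyrm4. Naxd had 1221 to 1434 counts in DMSO and 1237 with rotenone, and Lyrm4 had 325 to 396 and then 699. The part of these overlaps in the Cars2 and Fars2 counts was not tested.

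Pars2, the proline enzyme of mitochondria, had the largest fall of the 36. It stood at 21.4, 20.6 and 21.1 CPM in DMSO and at 6.90 CPM with rotenone, which is 0.328 of the DMSO level, and every DMSO library was above the rotenone one. Its counts were 140 in the rotenone library, and the log2 fold change was -1.61 ± 0.16 (edgeR adjusted p = 8.17e-08). The gene, with 2 exons in its principal transcript, lies on chromosome 4 from 106651069 to 106655282 (GRCm38, forward strand). It was the only synthetase lower by at least 2-fold, as 11.3% of all genes tested were, and the only lower one to pass with 20% assumed.

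Hars2, for histidine, fell from 31.7, 28.2 and 31.5 CPM to 18.4 CPM (-0.73 ± 0.13). Its first exon overlaps that of Hars head to head, with 195 bases in common on opposite strands, and Hars rose in the same library. The strand setting of the counting is unknown here, so reads of that stretch may have gone to either gene. Iars2, for isoleucine, fell from 140.2, 128.8 and 130.3 CPM to 94.2 CPM (-0.50 ± 0.08). Of its 5471-base transcript, 2034 bases lie antisense to Rab3gap2, whose counts were 1698 to 1796 in DMSO and 1296 with rotenone. Neither Hars2 nor Iars2 passed with 20% assumed.

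Values that did not pass were those of Rars2 (-0.39 ± 0.17), Mars2 (-0.33 ± 0.19), Ears2 (-0.17 ± 0.20), Vars2 (-0.10 ± 0.09), Nars2 (-0.07 ± 0.15) and Wars2 (0.05 ± 0.18), all log2 fold changes. Rars2, for arginine, had 17.5, 20.4 and 15.4 CPM in DMSO and 13.6 CPM with rotenone (edgeR adjusted p = 0.0569). It passed under 6 of 16 alternatives, among them without DMSO replicate 1 (edgeR adjusted p = 0.0279) and without DMSO replicate 3 (edgeR adjusted p = 0.0139). Wars2, for tryptophan, was the only synthetase whose rotenone level (14.1 CPM) lay inside the DMSO range of 12.2 to 16.1 CPM.

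Lars2, the leucine enzyme of mitochondria, was counted far above every other synthetase. Its levels were 2018, 1690 and 1595 CPM in DMSO and 3357 CPM with rotenone, a log2 fold change of 0.93 ± 0.12 (edgeR adjusted p = 0.000737). The gene lies on chromosome 9 from 123366927 to 123462666 (GRCm38, forward strand). Lars2 also varied more among DMSO libraries than most members, with a coefficient of variation of 12.5%, against a median of 4.61% for the mitochondrial genes. The share of counts in Rn45s, the ribosomal RNA precursor, ran in the same order of libraries: 3.17%, 2.58% and 2.51% in DMSO and 3.91% with rotenone. The part of ribosomal RNA in the Lars2 counts was not tested. Its principal transcript shared no stretch of 100 bases at 95% identity with transcripts of other genes in GENCODE M21. That search covered only GENCODE transcripts and kept no shorter stretch, so it cannot show whether ribosomal RNA reads entered the Lars2 counts.

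Summed over the 20 cytosolic genes, levels were 2228, 2368 and 2332 CPM in DMSO and 4011 CPM with rotenone, 1.74 times the DMSO mean. For the 15 mitochondrial genes other than Lars2 the sums were 464.9, 459.9 and 456.1 CPM in DMSO and 486.7 CPM with rotenone, above all 3 and 1.06 times their mean. With Lars2, which held 77.8% to 81.3% of the mitochondrial sum in DMSO and 87.3% with rotenone, the ratio was 1.73. The cytosolic sum over the mitochondrial sum with Lars2 was 0.8975, 1.101 and 1.137 in DMSO and 1.044 with rotenone, inside the DMSO range. The cytosolic sum over that of the other 15 mitochondrial genes was 5.02 ± 0.20 (SD, n = 3) in DMSO and 8.24 with rotenone. This rotenone value lay outside the DMSO range of 4.79 to 5.15, but Lars2 was left out only after the data were seen.

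**Figure D3:**
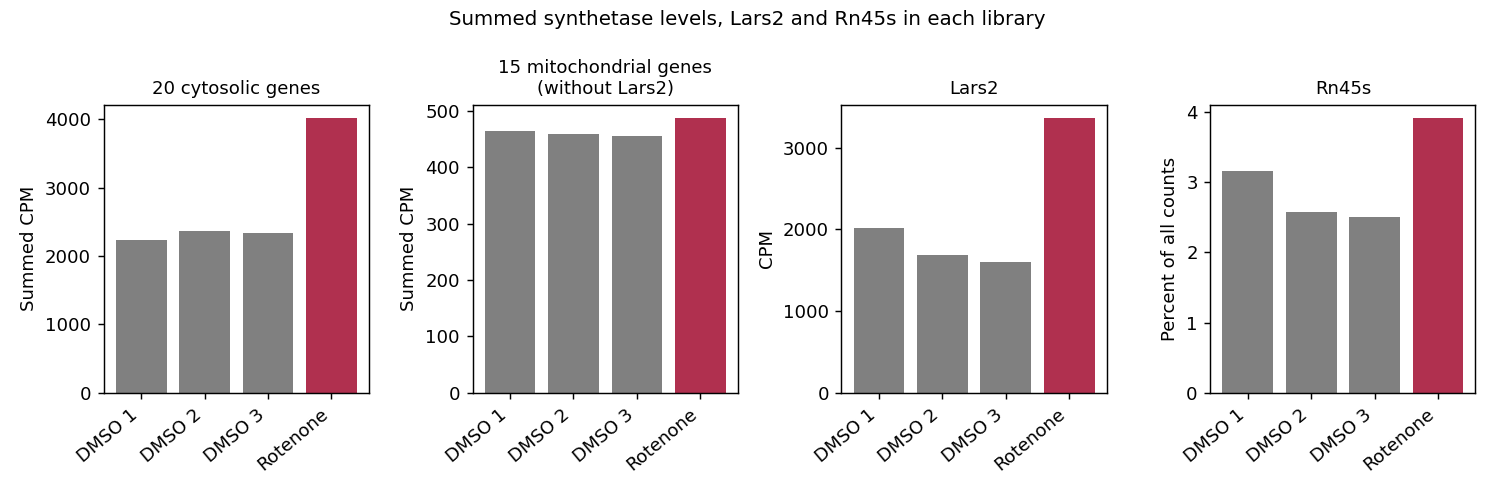
Summed CPM of the 20 cytosolic genes and of the 15 mitochondrial genes without Lars2, the CPM of Lars2, and the percent of all counts in Rn45s (vertical axes from 0), 1 bar per library with rotenone in red. The cytosolic sum rises from at most 2368 to 4011 CPM, the mitochondrial sum goes from at most 464.9 to 486.7 CPM, and the Lars2 and Rn45s bars share their order.

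Cytosolic and mitochondrial enzymes for the same amino acid could be compared in 17 gene pairs. The log2 ratio of cytosolic to mitochondrial CPM in the rotenone library was above all 3 DMSO libraries in 14 pairs, below in 2 and within their range in 1. Of single genes tested, 41.5% lay above and 44.7% below all 3 DMSO libraries, and no such share was taken for ratios of other genes. The median shift of the 17 pairs was 0.61. Eprs over Pars2 moved most, from 3.84 to 3.89 on the log2 scale in DMSO to 5.93 with rotenone, a shift of 2.06. Hars over Hars2 shifted by 1.36, Iars over Iars2 by 1.34, Vars over Vars2 by 1.28 and Mars1 over Mars2 by 1.24.

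Serine and leucine were the exceptions. Sars over Sars2 went from 4.09 to 4.17 in DMSO to 3.76 with rotenone (log2 ratio), since both genes rose and Sars2 more. Lars over Lars2 shifted by -0.52, with the limit on Lars2 given above. Cars over Cars2, at 1.30, stayed within its DMSO range of 1.20 to 1.59. These ratios carry no test, and the pairs that share Eprs or Fars2 are not independent.

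**Figure D4:**
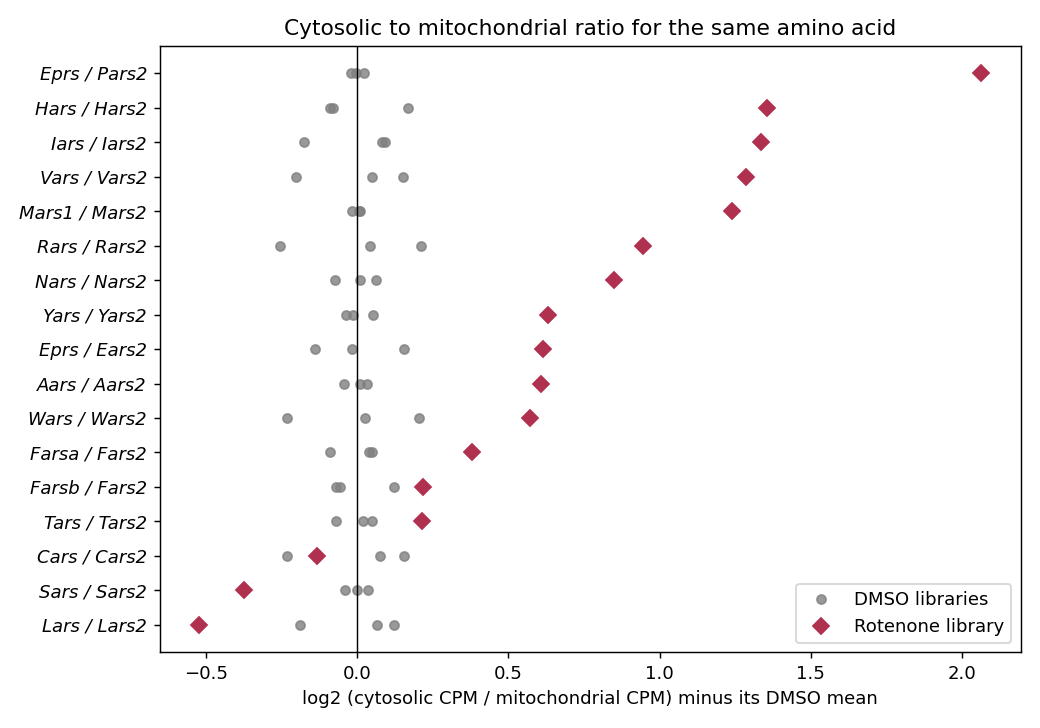
Log2 ratio of cytosolic to mitochondrial CPM for enzymes of the same amino acid, minus its DMSO mean (horizontal axis), in the 3 DMSO libraries (grey circles) and the rotenone library (red diamonds). In 14 of 17 pairs the diamond lies to the right of every circle, from 0.22 for Tars over Tars2 to 2.06 for Eprs over Pars2.

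Levels of different genes were compared as CPM per kilobase of the principal GENCODE transcript. In DMSO the cytosolic genes had a median of 28.5 CPM per kb and the mitochondrial ones 9.32 CPM per kb. After Lars2, at 454 ± 56.9 CPM per kb (SD, n = 3), came Wars (118 ± 5.79), Gars (77.0 ± 2.15), Sars (63.2 ± 3.00), Eprs (62.5 ± 0.284) and Nars (62.3 ± 5.27). The last 3 did not differ beyond their spread. Aars followed at 48.5 ± 2.97, a value that depends on a 5750-base transcript of which 1326 bases overlap Exosc6 in the same direction. Exosc6 itself had 320 to 448 counts in DMSO and 553 with rotenone. At the low end were Ears2 (4.19 ± 0.404), Nars2 (4.12 ± 0.193), which did not differ beyond their spread, Wars2 (3.08 ± 0.494) and Mars2 (0.827 ± 0.0246), whose annotated transcript is 11294 bases long.

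With rotenone the cytosolic median was 46.8 CPM per kb and the mitochondrial one 10.8 CPM per kb. In the order of all 36 levels, Pars2 went from place 27 to 35 and Iars2 from 13 to 25, while Tars went from 19 to 12 and Sars2 from 32 to 26. Lars2, Wars and Gars held places 1 to 3 in both.

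**Figure D5:**
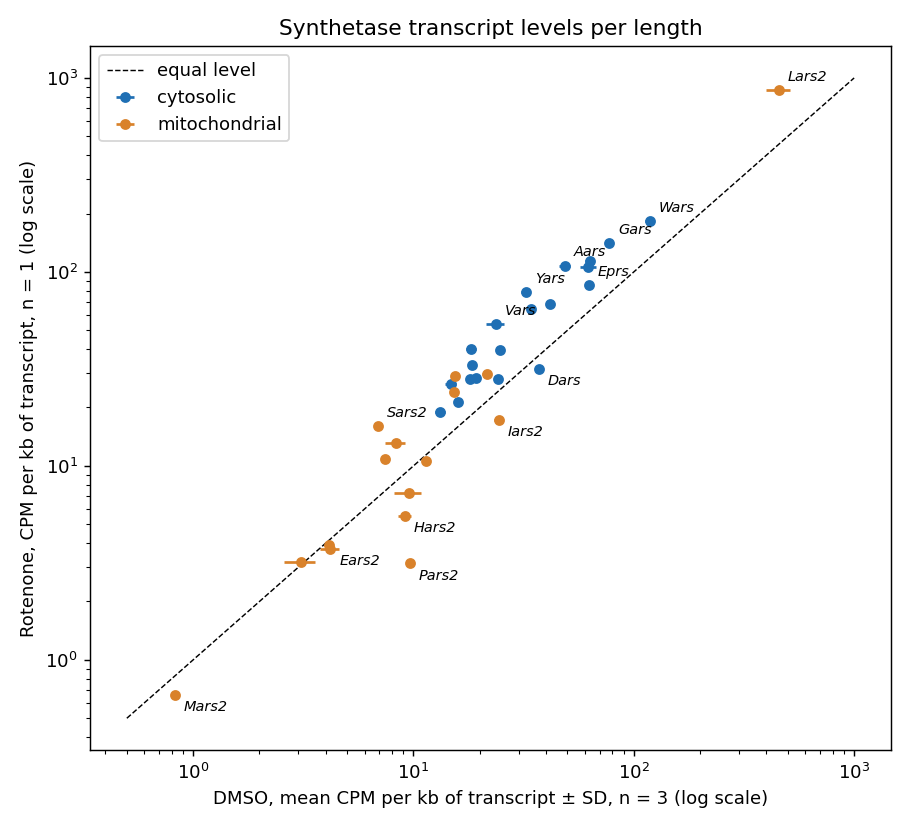
Level of each synthetase in the rotenone library (vertical axis, log scale, n = 1) against its DMSO mean ± SD (horizontal axis, log scale, n = 3), in CPM per kb of transcript. Cytosolic genes other than Dars lie above the line of equal level, and Pars2 lies farthest below it, at 3.15 CPM per kb against 9.61.

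Other genes of transfer RNA charging and use were taken from short lists, whose counts stand beside 27.6% of all genes tested called higher and 28.5% lower. Mitochondria make glutaminyl-tRNA by an amidotransferase rather than a synthetase of their own. All 3 subunit genes of it rose: Qrsl1 by 1.24 ± 0.13 on the log2 scale (13.2, 13.1 and 14.4 CPM to 32.1 CPM), Gatc by 0.64 ± 0.09 and Gatb by 0.37 ± 0.11. Mtfmt, which formylates the mitochondrial initiator methionyl-tRNA, fell by 0.60 ± 0.15. Of 5 editing and proofreading genes, 3 rose and 0 fell. Dtd1, which removes D-amino acids, rose by 1.02 ± 0.21. Aarsd1, which clears mischarged tRNA for alanine, rose by 0.90 ± 0.10, and Ptrhd1 by 0.85 ± 0.14. Dtd2 (0.09 ± 0.11) and Prorsd1 (-0.29 ± 0.13, below all 3 DMSO libraries) did not pass. All 3 transport genes rose, Xpot, the tRNA exportin, by 0.29 ± 0.08, Xpo5 by 0.31 ± 0.11 and Nxt1, known mainly for mRNA export, by 1.24 ± 0.09.

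Of 7 cytosolic elongation genes, 6 rose and 0 fell, against 27.6% and 28.5% of all genes tested, with a median log2 fold change of 0.49. Eif5a rose by 1.07 ± 0.06, from 313.8 to 319.7 CPM in DMSO to 668 CPM. Eef1g rose by 0.92 ± 0.06 and Eef1d by 0.72 ± 0.07. Of 9 mitochondrial translation factors, 3 rose, a share near the 27.6% of all genes, and 1 fell, with a median of 0.07. Gfm1, a mitochondrial elongation factor G, rose by 0.90 ± 0.10, Mrrf by 0.42 ± 0.09 and Tsfm by 0.34 ± 0.10, while the release factor gene Mtrf1 fell by 0.80 ± 0.20. Tufm, which brings charged transfer RNA to the mitochondrial ribosome, gave 0.07 ± 0.07 and did not pass. Of the difference between these lists no test was made.

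Of 25 amino acid response genes under ATF4, 17 rose and 4 fell, against 27.6% and 28.5% of all genes tested, with a median log2 fold change of 0.96. Atf4 had 609.6, 611.4 and 642.6 CPM in DMSO and 963 CPM with rotenone (0.63 ± 0.06), and Ddit3 (CHOP) rose by 1.26 ± 0.07. Atf3, a stress-induced transcription factor, rose by 2.83 ± 0.11. Slc7a5 and Slc3a2, the chains of a large neutral amino acid transporter, rose by 1.78 ± 0.08 and 1.63 ± 0.06. The 4 that fell were Sesn2, Stc2, Vldlr and Slc38a2, named after their values were seen. In this list 7 of 23 genes with a promoter window (30.4%) held TGATGNAA, against 4.13% of all protein-coding genes with a window. Of the 7, Atf3, Nupr1, Trib3, Asns and Slc7a11 rose. Vldlr fell by 0.468 on the log2 scale, and Chac1 gave -0.645 and did not pass.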

How the data were processed

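The deposited files give raw read counts for each gene symbol, all whole numbers. The authors aligned with TopHat2 to mm10, per the submitters' processing notes; versions, the counting program, the annotation and the strand setting: not given in the sources used here. Trizol RNA went into NEBNext Ultra RNA libraries, per the labels' protocols. Separate cultures are not named, so p-values reflect only how these libraries differ, possibly for technical reasons.

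Counts were filtered with filterByExpr (14709 genes kept), scaled by TMM and tested with edgeR 4.0.16 (robust quasi-likelihood F test, R 4.3.3, 2 residual degrees of freedom), with Benjamini-Hochberg adjustment across the tested genes and a threshold of 0.05. Standard errors are the log2 fold change over the square root of F. The scripts were tested on simulated data. Alternatives were other scalings and filters, leaving out each DMSO library, DESeq2 1.42.0, limma-voom (limma 3.58.1), a non-robust prior, an assumed coefficient of variation of 20%, a threshold of 0.01, a test against 1.5-fold, leaving out Rn45s, and a length and GC correction in 8 by 8 bins of principal transcripts (14217 genes). The sum without Lars2 was added after seeing the data. Members, lists and rules were chosen with earlier results of these data known; all 36 synthetases are named, and from other lists up to 3 members past the threshold with the largest changes, and a few others chosen after their values were seen. Positions are from GENCODE M21 on GRCm38, where Mars1 is listed under its older symbol, and promoters from RefSeq on GRCm38.p6. Protein sequences were not used here, and 1 sequence item is not reported here.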

Additional observations from a re-analysis of the deposited data

How the results depend on the processing

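No paired analysis was possible because the 3 rotenone files are 1 library, so the replicate numbers pair nothing. Of 36 synthetase calls, all 36 held in direction and side of the threshold with median-ratio scaling, limma-voom, a non-robust prior, the 1 CPM filter and without Rn45s, and 34 of 36 with DESeq2. With a coefficient of variation of 20%, 17 calls were lost: 9 cytosolic genes were higher and 0 lower, 3 mitochondrial higher and 1 lower, and 1408 and 2063 of all genes. In the test against 1.5-fold, 10 cytosolic genes were higher and 0 lower, 3 mitochondrial higher and 1 lower, and 1203 and 1731 of all genes. The cytosolic count lower, Dars alone, was also 0 with DESeq2 and at a threshold of 0.01 in edgeR (1 at an unadjusted p under 0.05 in both), and 0 after the length and GC correction (0 unadjusted). The median log2 fold change was 0.25 in the decile of genes with the shortest transcripts and -0.28 in that with the longest. After that correction the cytosolic median was 0.67 and the mitochondrial median turned to 0.065, and Mars2 (0.003), Nars2 (0.005) and Vars2 (0.017) changed sign. With upper quartile scaling the medians were 0.70 and -0.052 and the summed cytosolic ratio 1.69. With library size scaling they were 0.62 and -0.13, the summed ratios were 1.60 (cytosolic) and 1.59 (mitochondrial), and Wars2 turned to -0.067; the median of all genes moved from -0.04 to -0.16, and calls over all genes from 4054 higher and 4197 lower to 3245 and 5153. Leaving out each DMSO library gave a mitochondrial median from -0.044 to 0.076, the latter without DMSO replicate 3, and a summed mitochondrial ratio from 1.66 to 1.84, the latter without DMSO replicate 1; for Wars2 the range was -0.019 to 0.192, the former without DMSO replicate 2. Without Lars2 the summed mitochondrial ratio was 1.06. Where no construction of the alternative shows it, the cause was not tested.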

Other observations

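Enzymes that make the amino acids used by some synthetases were also measured. Asns, which makes asparagine, rose by 1.28 ± 0.06 on the log2 scale (180.5 to 184.7 CPM in DMSO, 442.6 CPM with rotenone), beside a rise of 0.77 ± 0.08 for Nars. Psat1 of the serine path rose by 1.26 ± 0.06, and Aldh18a1, the entry to proline synthesis, by 0.93 ± 0.07. Pycr1, the last step to proline, gave 0.16 ± 0.11 and did not pass. Glul, which makes glutamine, fell by 0.22 ± 0.07, while Qars gave 0.21 ± 0.08. Of the 7 genes of this list, 5 rose and 1 fell, against 27.6% and 28.5% of all genes tested, with a median log2 fold change of 0.52. Asns, Psat1 and Shmt2, which all rose, are also counted among the amino acid response genes above, so the lists are not independent. All values here are from edgeR's quasi-likelihood test.

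Of 5 genes of the selenocysteine path, which starts from seryl-tRNA made by the enzyme of Sars, 3 rose and 1 fell, against 27.6% and 28.5% of all genes tested. Eefsec, the selenocysteine elongation factor, rose by 0.61 ± 0.17 on the log2 scale, Trnau1ap by 0.55 ± 0.10 and Pstk, which phosphorylates the seryl-tRNA, by 0.46 ± 0.14. Sepsecs, the enzyme of the last step, fell by 0.54 ± 0.12, from 30.3 to 34.3 CPM in DMSO to 22.5 CPM with rotenone. Secisbp2 gave 0.27 ± 0.16 and did not pass.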
